A study of Homo sapiens with 6 samples.

Results

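The KDM3B regions kept after depletion are the stretches of DNA that were called as KDM3B-bound in control HCT116 cells and that shared at least 1 bp with a KDM3B region called after KDM3A and KDM3B had been depleted. They were chosen from the measured calls of both libraries, and they numbered 4536 of the 17638 regions of the control list, or 25.7%. Of these, 10 lay within 5 kb of an assembly gap and are given apart, and the other 4526 of 17615 are the kept regions described here. The remaining 13089 control regions had no overlap and are called not kept. As the overlap itself made the groups, the kept share and the widths and ranks of the regions in both lists are descriptions without a test.

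KDM3B is a JmjC-domain demethylase that removes methyl groups from lysine 9 of histone H3, with a preference for the dimethylated form H3K9me2, a mark of silent chromatin. It belongs to a family with KDM3A and JMJD1C, and in colorectal cancer cells it has been linked to the genes switched on by Wnt/β-catenin signalling. A ChIP-seq region for such an enzyme is a stretch that its antibody recovered more often than input DNA did.

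HCT116 is a human colorectal cancer cell line with constitutively active β-catenin. Control cells carried a scramble shRNA (HCT116/Scrsh) and depleted cells an shRNA against both KDM3A and KDM3B (HCT116/ABsh-1), each delivered in the pLKO.1-puro vector, whereas the labels of the samples speak of siRNA. KDM3B and H3K9me2 were each profiled in both populations, with 1 library per antibody and population, so each condition stands on a single library and no p-value is given. The number of reads is not stated for any library, so depth is unknown, and how far depth sets which regions were kept cannot be told apart from the depletion. Each region carries a whole-number score of unstated meaning, which was turned into a rank percentile within its own list, where 100 is the highest. Shares carry Wilson 95% confidence intervals that cover counting error only, because neighbouring regions are not independent.

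The replication-dependent histone genes held several of the best-ranked kept regions. Shown here are the bases shared by the control and the depleted region at 4 histone promoters of chromosome 6, on the plus strand of hg19, shortened to at most 200 bases and trimmed so that they hold no annotated UTR. Capitals mark CCAAT (the letters of the NF-Y CCAAT box, or ATTGG on the other strand) and TGACGTCA (the letters of a cyclic AMP response element).

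H4C3, chr6:26103930-26104129: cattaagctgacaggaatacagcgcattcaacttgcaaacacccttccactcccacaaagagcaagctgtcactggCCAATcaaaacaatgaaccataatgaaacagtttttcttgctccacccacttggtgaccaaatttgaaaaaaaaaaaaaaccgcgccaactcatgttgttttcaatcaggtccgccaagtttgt
H2AC4, chr6:26033873-26034072: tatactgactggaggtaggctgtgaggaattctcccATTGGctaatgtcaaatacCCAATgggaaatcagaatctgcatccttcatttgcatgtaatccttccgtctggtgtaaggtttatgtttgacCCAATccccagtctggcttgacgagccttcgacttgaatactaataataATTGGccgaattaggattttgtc
H2BC11, chr6:27100598-27100797: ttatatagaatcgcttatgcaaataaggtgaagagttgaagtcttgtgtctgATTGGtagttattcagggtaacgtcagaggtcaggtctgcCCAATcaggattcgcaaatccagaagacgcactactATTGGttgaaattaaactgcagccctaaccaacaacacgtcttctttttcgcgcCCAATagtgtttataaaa
H2AC12, chr6:27114701-27114884: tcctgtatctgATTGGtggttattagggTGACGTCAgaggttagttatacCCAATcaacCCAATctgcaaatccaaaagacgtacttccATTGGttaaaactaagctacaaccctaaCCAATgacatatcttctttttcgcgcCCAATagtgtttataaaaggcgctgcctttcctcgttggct

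The H4C3 stretch held 1 match to CCAAT, those of H2AC4 and H2BC11 held 4 each, and that of H2AC12 held 6 together with 1 match to TGACGTCA. They were chosen for these letters, and the stretches of the higher-ranked histone regions at HIST1H4B and H4C5 held no CCAAT. A match is a description of letters and not a binding site. All 4 stretches lay outside coding exons, and their GC content ran from 40.5% at H2BC11 to 42.5% at H2AC4. The whole control regions had 47.8% (H4C3), 49.2% (H2AC4), 50% (H2BC11) and 55% (H2AC12), beside a mean of 55.0% over all kept regions.

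A second set shows kept regions outside the histone genes that are described further on, again on the plus strand of hg19 and without UTR bases. They are the promoters of ZNF335 (a zinc finger transcriptional regulator), MRPS23 (a subunit of the small mitochondrial ribosome) and CUTC (a copper-binding protein), an intron of BCL9L (a β-catenin co-activator), the upstream flank of RRP1 (a ribosomal RNA processing factor), which an H3K9me2 region of depleted cells overlapped, and a window at the Wnt target CCND1 (cyclin D1). The CCND1 window lay just upstream of one annotated TSS of the gene but downstream of another. Capitals mark AAGATGGC (YY1) in ZNF335 and CCGGAAG (ETS) in CUTC, both read on the other strand.

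ZNF335, chr20:44600430-44600629: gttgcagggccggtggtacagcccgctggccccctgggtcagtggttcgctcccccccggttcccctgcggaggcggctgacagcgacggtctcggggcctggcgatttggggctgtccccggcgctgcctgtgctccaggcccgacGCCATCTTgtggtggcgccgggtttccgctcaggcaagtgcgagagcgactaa
MRPS23, chr17:55927509-55927708: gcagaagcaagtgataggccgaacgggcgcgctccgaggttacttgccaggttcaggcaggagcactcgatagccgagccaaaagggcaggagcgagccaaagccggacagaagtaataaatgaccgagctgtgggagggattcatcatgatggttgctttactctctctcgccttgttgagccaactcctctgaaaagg
CUTC, chr10:101491885-101491990: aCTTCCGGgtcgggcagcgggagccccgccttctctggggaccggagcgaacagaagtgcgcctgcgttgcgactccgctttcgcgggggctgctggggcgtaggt
BCL9L, chr11:118777950-118778149: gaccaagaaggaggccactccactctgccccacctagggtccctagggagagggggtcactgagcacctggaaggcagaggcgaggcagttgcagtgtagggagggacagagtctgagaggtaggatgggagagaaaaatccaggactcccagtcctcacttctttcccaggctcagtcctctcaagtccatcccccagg
RRP1, chr21:45206700-45206899: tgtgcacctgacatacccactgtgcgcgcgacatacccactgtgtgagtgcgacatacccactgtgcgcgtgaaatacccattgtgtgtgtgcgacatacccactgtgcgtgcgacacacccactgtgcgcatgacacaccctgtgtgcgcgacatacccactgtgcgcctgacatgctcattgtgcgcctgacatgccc
CCND1, chr11:69458301-69458400: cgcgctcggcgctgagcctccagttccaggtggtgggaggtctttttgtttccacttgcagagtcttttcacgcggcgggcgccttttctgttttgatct

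The RRP1 stretch is built of a short unit that recurs along it with changed letters, and it held no match to any of the 10 motifs searched. The CUTC stretch had a GC content of 70.8% and the ZNF335 stretch 71.0%, the BCL9L stretch 59.5%.

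Whether a region was kept went with its rank in the control list. In the lowest 10% of ranks 39 of 1780 regions were kept, or 2.19% (1.61 to 2.98%). In the highest 10% of ranks 1289 of 1751 were kept, or 73.6% (71.5 to 75.6%), and the share rose in every step between. Width gave the same order at its lower end. Of the regions of a single 100-bp window, the smallest width in the lists, 13.6% were kept (1287 of 9473 regions), against 33.2% of those of 200 bp, 44.1% of those of 300 bp and 55.1% of those of 400 bp. Regions of 500 bp or more were kept in 53.7% of cases (353 of 657), and the interval of 49.9 to 57.5% overlaps that of the 400-bp class. Among single windows alone, 42.3% of those in the upper 50% of ranks and 9.25% of those in the lower 50% were kept. A wider region has more bases in which an overlap can occur, and width and rank moved together over all control regions (Spearman's rho 0.846, 17615 regions of 1 library).

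**Figure D1:**
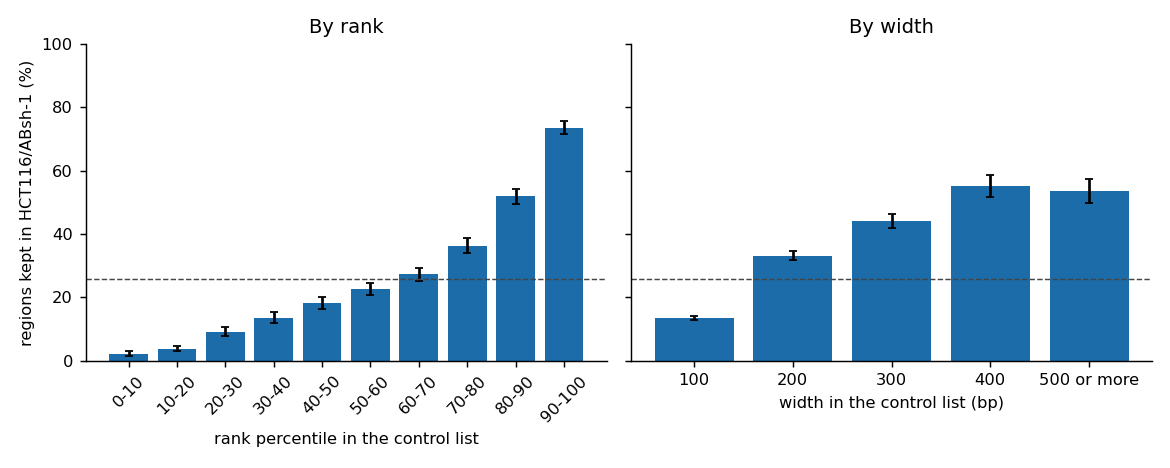
Share of control KDM3B regions kept in HCT116/ABsh-1, by 10% steps of rank percentile in the control list (left) and by width in bp (right). Bars are shares with Wilson 95% confidence intervals, the dashed line is the share over all 17615 regions, and the share rises from 2.19% in the lowest step of rank to 73.6% in the highest.

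The kept regions spanned 100 to 1900 bp in control cells, with a median of 200 bp, and their partners in depleted cells 100 to 1200 bp, with a median of 200 bp. Regions not kept had a median width of 100 bp, and in the upper 50% of ranks of each list both groups had 200 bp. In depleted cells 2185 of the 4526 kept regions were narrower (48.3%), 1398 had the same width and 943 were wider (20.8%). The start and the end were both identical in 1126 pairs (24.9%), of which 727 were a single window in both lists. The centres of a pair lay a median of 50 bp apart, at most 500 bp, and 9 kept regions overlapped 2 depleted-cell regions. In all, the kept regions covered 1.10 Mb in control cells, which is 34.4% of the control cover outside the gap zones, and their partners covered 0.850 Mb, with 0.664 Mb shared. Regions are built of 100-bp windows, so 100 bp was the smallest overlap and can be the whole of a region. Exactly 100 bp were shared by 3032 kept regions, with a median width of 200 bp and a median rank percentile of 68.0. Among them were the 727 pairs of single windows. When an overlap of 50% of the shorter region was asked for, the kept share was 25.6%. Just outside the rule, 702 regions not kept touched a depleted-cell region without sharing a base, with a median width of 100 bp and a median rank percentile of 46.6. For 10973 regions not kept (83.8%), no depleted-cell KDM3B region lay within 5 kb. Seen from the list of depleted cells, 4538 of 8046 regions overlapped a control region (56.4%, 55.3 to 57.5%). Outside the gap zones those that did had a median width of 200 bp and a median rank percentile of 66.6, and the 3499 that did not had 100 bp and 28.3.

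The median rank percentile of the kept regions was 79.5 in the control list and 66.6 in the list of depleted cells, where regions not kept had a median of 39.4 in the control list. The rank was lower in depleted cells for 2967 kept regions and higher for 1559, and the lists differ in length, so a rank is a place within a list and not an amount. Overlapping regions made up 25.7% of the control list but 56.4% of the depleted-cell list, which limits how high their ranks can lie in the latter. The part of this in the lower ranks was not tested. Over the 4526 pairs the ranks had a Pearson's r of 0.362 and a Spearman's rho of 0.400, a description of 2 libraries without a p. The highest 10% of both lists held 457 kept regions in common, and 404 lay in the lower 50% of both.

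**Figure D2:**
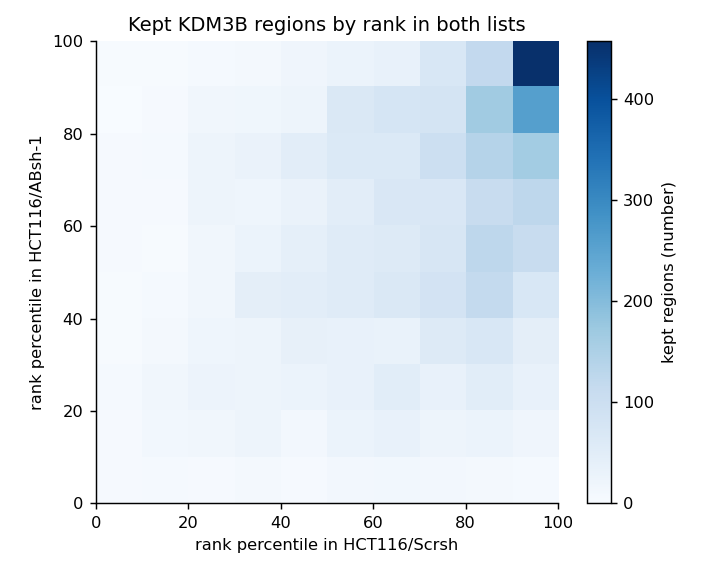
Number of kept KDM3B regions by rank percentile in HCT116/Scrsh (x axis) and in HCT116/ABsh-1 (y axis), in steps of 10%. Darker squares hold more regions, and the fullest is the top right square with 457 regions that rank in the highest 10% of both lists.

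Of the 10 kept regions with the highest mean of both ranks, 4 lay at start sites of the genes given next and 3 in the histone cluster of chromosome 6. At ZNF335 a region of 900 bp (chr20:44600201-44601100) had rank percentiles of 99.97 in control and 99.85 in depleted cells, where it spanned 800 bp, and its centre lay at 192 bp from the TSS, where a minus sign in what follows means upstream. At MRPS23 the values were 99.96 and 99.72 (chr17:55927201-55928000, 800 bp against 500 bp), centred at -183 bp from the TSS. At CUTC they were 99.93 and 99.70 (chr10:101491601-101492500, 900 bp against 600 bp), and at ZDHHC5, a palmitoyltransferase gene, 99.90 and 99.70 (chr11:57434601-57435500, 900 bp against 1000 bp). These 4 regions held no 30-base word that recurs elsewhere in the genome in their central 100 bases. The highest mean rank of all fell on a 300-bp region in an intron of HFM1, a meiotic DNA helicase gene (chr1:91852801-91853100, 99.98 and 99.96), in which 100% of the 30-base words of the centre recur. In the tenth of this order, an intronic region of DLG2 (chr11:85195001-85195200), 64.8% recur, and in one near LINC00273 on chromosome 16 (chr16:33963101-33963400) 5.63%. Over all kept regions 4.84% held such a recurring word, against 6.17% of the regions not kept. Whether reads from other copies add to these regions was not tested.

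The 5 widest kept regions were all narrower in depleted cells. They were picked for their width in control cells, and no partner spanned more than 1200 bp, so this direction was fixed by the choice. The region of HEXIM1, an inhibitor of the elongation factor P-TEFb, was 1900 bp in control cells and 300 bp in depleted cells (chr17:43225101-43227000, rank percentiles 99.94 and 77.7). That of UBE2D3, a ubiquitin-conjugating enzyme, went from 1600 bp to 200 bp (99.86 and 81.3), that of RAB26, a small GTPase, from 1400 bp to 200 bp (99.75 and 59.9), and that of OSGIN1, an oxidative stress response gene, from 1400 bp to 200 bp (99.87 and 80.4). The fifth, centred at -5905 bp from the TSS of ONECUT3, a homeobox factor gene, went from 1400 bp to a single window of 100 bp (99.66 and 33.2). All 5 kept a minority of their bases.

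The kept regions whose rank fell most lay at start sites. EREG, which encodes the EGFR ligand epiregulin, had 400 bp at rank percentile 92.0 in control cells and 100 bp at 3.0 in depleted cells (chr4:75230601-75231000). PKM, the glycolytic enzyme pyruvate kinase, had 1000 bp at 98.4 and 100 bp at 11.7 (chr15:72523101-72524100). ESRP2, an epithelial splicing regulator, had 600 bp at 97.6 and 100 bp at 3.0, USPL1, a SUMO protease, 600 bp at 96.99 and 100 bp at 6.61, and ZNF133 700 bp at 96.0 and 100 bp at 6.61. Of the 4 control regions within 5 kb of an ESRP2 TSS 3 were kept, and another of these rose from 50.6 to 80.4. The 5 kept regions whose rank rose most were single windows in control cells. At TOB2, an antiproliferative gene, the rank percentile went from 5.12 to 93.0 and the width to 500 bp. At WNT7B, a Wnt ligand, it went from 8.38 to 93.9 with 600 bp, at VAPA, a membrane contact protein, from 8.38 to 93.4 with 500 bp, at B4GALT7, a glycosyltransferase, from 22.9 to 99.4 with 400 bp, and at MEF2C, a MADS-box factor, from 22.9 to 99.02 with 300 bp. The WNT7B region lay at -2808 bp from the TSS and 101 bp from an H3K9me2 region of depleted cells, and in the MEF2C region 28.2% of the central 30-base words recur.

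Kept and not kept regions lay within 5 kb and within 200 bp of a TSS at shares whose intervals overlap, and at distances between, the kept share was lower. Within ±5 kb of a TSS lay 55.1% of the kept centres (53.7 to 56.6%), 55.0% of those not kept and 55.0% of all control regions. Within 2 kb lay 39.2% of the kept (37.8 to 40.6%) and 41.8% of the others (41.0 to 42.7%), and within 200 bp 21.3% (20.1 to 22.5%) and 21.9% (21.2 to 22.6%). Promoters, taken as the 3 kb upstream of a TSS, held 35.5% of the kept (34.1 to 36.9%) and 36.3% of the others (35.5 to 37.1%). Introns held 25.8% of the kept (24.5 to 27.1%) and 28.9% of the others (28.1 to 29.7%). The 3 kb downstream of a transcript held 12.6% (11.7 to 13.6%) against 10.4% (9.87 to 10.9%), and distal intergenic DNA 22.9% (21.7 to 24.2%) against 20.8% (20.1 to 21.5%). For introns, the downstream class and intergenic DNA the intervals of both groups do not overlap, and for promoters they do. The downstream class was assigned over all transcripts and before exons and introns. It therefore also holds centres near start sites, such as that of OSGIN1 at 155 bp from the TSS. Because the kept regions are wider and rank higher, the same shares were taken among the highest 10% of control ranks alone. There, promoters held 38.6% of 1289 kept regions (35.9 to 41.2%) and 50% of 462 regions not kept (45.5 to 54.5%), and a TSS lay within 2 kb of 41.4% and 55.8%. Of single-window regions, 29.8% of the kept and 32.2% of the others were in promoters. The nearest TSS belonged to a protein-coding gene for 58.3% of the kept regions, to a long non-coding RNA for 23.9% and to a processed pseudogene for 7.56%, against 58.9%, 23.2% and 7.70% of the others. Its median distance was 3815.5 bp for the kept and 3724 bp for the others. No test of these differences was made, since regions of 1 library are not replicates.

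**Figure D3:**
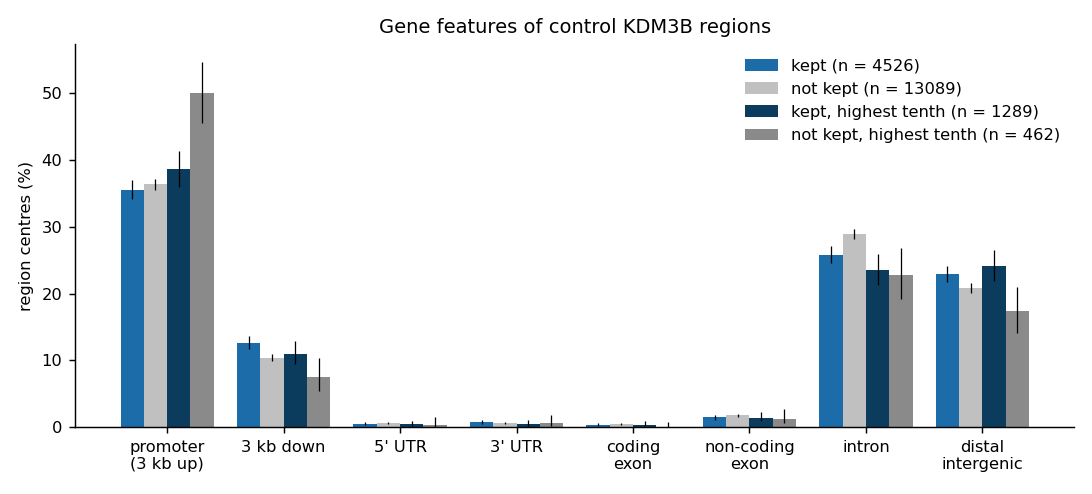
Share of region centres (y axis, percent) in each gene feature (x axis) for kept and not kept control KDM3B regions, over all regions and over the highest 10% of ranks. Bars are shares with Wilson 95% confidence intervals, and in the highest 10% the promoter share is 38.6% for kept and 50% for not kept regions.

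The kept regions were not uniform among themselves. Those of 500 bp or more in control cells lay in promoters in 59.5% of 353 cases and within 5 kb of a TSS in 75.1%. Those with identical ends in both lists lay in promoters in 27.6% of 1126 cases and in introns in 30.4%. The 943 that were wider in depleted cells had a promoter share of 40.8% and a mean GC content of 57.2% ± 10.1 (SD), whereas the 2185 that were narrower had 36.5% and 54.2% ± 8.56. H3K9me2 of depleted cells lay within 5 kb of 44.5% of the wider (41.4 to 47.7%) and of 35.9% of the narrower regions (33.9 to 37.9%). The 457 in the highest 10% of both lists were in promoters in 43.1% of cases, and 8.53% of them held a recurring 30-base word.

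More than 50 kb from any TSS lay 178 kept regions (3.93%), against 4.97% of those not kept. The best-ranked of them lay 131444 bp past the nearest protein-coding TSS, that of the neuropeptide gene CARTPT (chr5:71146701-71147000, rank percentiles 99.89 and 99.22), and 73.2% of its central 30-base words recur. An intronic region of MIR100HG, the host transcript of a microRNA cluster, had 96.7 and 96.6 (chr11:122376401-122376800), and an intronic region of ST6GALNAC3, a sialyltransferase gene, 95.9 and 95.8 (chr1:76619801-76620100), both with no recurring word. The others of the first 5 have MTDH and ADCY8 as their nearest protein-coding genes, with rank percentiles of 99.4 and 94.4 at the first and of 98.97 and 92.4 at the second.

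In sequence, the kept regions had a mean GC content of 55.0% ± 9.14 (SD, n = 4526 regions), those not kept 53.1% ± 9.70 (n = 13089). The CpG ratio, observed over expected from the base composition, was 0.454 ± 0.305 and 0.396 ± 0.319, and it exceeded 0.6 in 30.1% of the kept regions (28.8 to 31.5%) and in 25.5% of the others (24.8 to 26.3%). Motif letters were searched on both strands in the 100 bases around each centre, and no motif searched contains another. TGACTCA, the letters of an AP-1 site, occurred in 3.56% of the kept regions (3.06 to 4.14%) and in 5.87% of the others (5.48 to 6.28%), with 5.27% over all control regions. CCAAT occurred in 10.8% (9.93 to 11.7%) and 13.5% (12.9 to 14.1%), with 12.8% over all. AAGATGGC, as in the ZNF335 promoter shown, occurred in 1.70% (1.36 to 2.12%) and 1.03% (0.872 to 1.22%), with 1.204% over all. GGGCGG, a GC box of SP and KLF factors, occurred in 11.6% (10.7 to 12.5%) and 10.1% (9.62 to 10.7%), with 10.5% over all. ATCAAAG, the letters of a TCF/LEF site, occurred in 1.30% (1.01 to 1.68%) and 1.67% (1.46 to 1.90%), with 1.57% over all. CACGTG (E-box) was found in 2.56% and 2.33%, with 2.39% over all, and CCGGAAG in 1.97% and 2.41%, with 2.29% over all. The rarest were GCGCATGC (NRF1) in 23 kept regions, TCTCGCGA (a palindrome of promoters) in 15 and TGACGTCA in 4, or 0.508%, 0.331% and 0.0884%, with 0.341%, 0.238% and 0.233% over all control regions. For the AP-1 and NF-Y letters, lower in the kept regions, and for the YY1 letters and the GC box, higher in them, the intervals of the groups do not overlap. The part of GC content, width and rank in these differences was not tested.

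H3K9me2 did not enter the choice of the regions. In depleted cells, an H3K9me2 region lay within 5 kb of 1701 kept regions, or 37.6% (36.2 to 39.0%), beside 31.9% (31.1 to 32.7%) of those not kept and 33.4% of all control regions. In control cells the shares were 3.62% (3.12 to 4.21%), 3.76% and 3.72%, so that kept and not kept regions had intervals that overlap before depletion and not after it. Direct overlap was rare in both groups, with 22 kept regions (0.486%) and 68 of those not kept (0.520%) on an H3K9me2 region of depleted cells and 0.511% of all control regions. Around the centres of the kept regions, H3K9me2 regions of depleted cells covered 0.315% of the bases within 200 bp and 2.93% of those from 1 to 3 kb away. Around regions not kept they covered 0.539% and 2.69%. H3K9me2 of depleted cells went with GC content, being within 5 kb of 19.3% of the kept regions under 50% GC, of 40.4% of those from 50 to 60% and of 52.9% of those over 60%. Within these 3 classes the regions not kept had 16.1%, 36.5% and 49.4%, lower each time but with overlapping intervals in the last class. Among single windows the shares were 37.5% of the kept and 31.2% of the others, and in the highest 10% of ranks 37.2% (34.6 to 39.8%) and 31.4% (27.3 to 35.8%), where the intervals overlap. Beyond 5 kb of a TSS the shares were 30.1% of the kept and 23.4% of the others, and within 5 kb of one 43.6% and 38.9%.

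**Figure D4:**
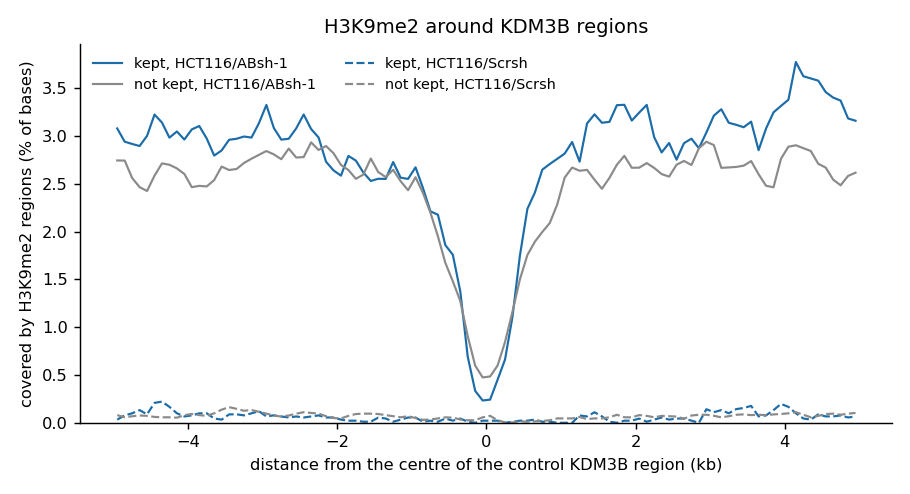
Percent of bases covered by H3K9me2 regions (y axis) by distance in kb from the centre of control KDM3B regions (x axis), for kept and not kept regions, in HCT116/ABsh-1 (solid) and HCT116/Scrsh (dashed). In HCT116/ABsh-1 the cover dips to 0.315% within 200 bp of kept centres and stands at 2.93% from 1 to 3 kb.

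The best-ranked kept regions that did overlap H3K9me2 of depleted cells lay at RRP1 (chr21:45206401-45207300, 900 bp in both lists, rank percentiles 99.2 and 99.1), at COL6A1, a collagen VI chain gene (chr21:47400401-47401200, 99.4 and 97.5) and in an intron of PMF1, a kinetochore gene (chr1:156186301-156186400, 93.8 and 99.8). Another lay near the centromere of chromosome 2 (chr2:91816601-91816900, 99.3 and 98.9). At COL6A1 57.7% of the central 30-base words recur, at chromosome 2 8.45%, at PMF1 2.82% and at RRP1 0%.

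Of the 20163 protein-coding genes, 2210 had a kept region within 5 kb of a TSS, or 11.0%, through 1919 distinct regions. Of the 7047 with any control region there, this is 31.4%. A single kept region was found at 1996 genes, 2 at 193 genes and 3 or more at 21. AMPD3, an AMP deaminase gene, had 5 kept of 7 control regions, BCL9L 4 of 5 and GRHL3, an epithelial transcription factor gene, 4 of 4. ADM, the adrenomedullin gene, and CDC37, an HSP90 co-chaperone gene, had 3 of 5 each. They were tied with other genes, among them PTPN6 and SBF2 (3 of 5) and C12orf57, ESRP2 and IGF2 (3 of 4). AMPD3 and ADM have the same best region, with rank percentiles of 92.0 and 90.7, and the best values of SBF2 were the same. H3K9me2 of depleted cells lay within 5 kb of a TSS of 58.9% of the 2210 genes (56.8 to 60.9%), of 50.9% of the 4837 genes that had control regions but none kept and of 47.0% of the 13116 without a control region. In control cells the shares were 9.50%, 8.15% and 11.1%.

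Gene lists are described by the share of genes with a kept region among those with any control region, to be read beside the 31.4% of all protein-coding genes. As the same overlap made the choice, the shares are descriptions, and neighbouring genes of a list can have a region in common. The replication-dependent histone genes, which supply histones for newly copied DNA, had the highest share, with 33 of 40 genes (82.5%, 68.1 to 91.3%) at 26 distinct kept regions. In the chromosome 6 cluster, 21 of 36 control regions within 5 kb of a histone TSS were kept, or 58.3%. The kept share was 25.7% over all control regions and 73.6% over those with rank percentiles of 90 to 100. The 21 kept regions had a median width of 500 bp in both lists. Their median rank percentiles were 98.4 and 97.8, with ranges of 29.8 to 99.98 and 23.1 to 99.93. Rank was not matched for this or any other gene list, and its part in the shares was not tested. The 500-kb stretch chr6:26000001-26500000 had more kept regions than any other of its size, 15 of 27. At H2BC4 (chr6:26123001-26123800) the rank percentiles were 99.98 and 99.93. At a gene the annotation lists as HIST1H4B (chr6:26026601-26027800) both regions spanned the same 1200 bp, with 99.97 and 99.84, and at H4C5 (chr6:26204601-26205200) the same 600 bp, with 99.95 and 99.66. The H4C3 region of the sequences shown had 99.90 and 99.59, that of H2BC11 98.9 and 98.2, that of H2AC12 98.4 and 98.0, and that of H2AC4 96.2 and 98.4. The linker histone gene H1-4 went the other way, with 500 bp at 93.8 in control cells and a single window at 28.3 in depleted cells. In width, 11 of the 21 were narrower in depleted cells, 5 were the same and 5 were wider. The central 100 bases held CCAAT in 5 of the 21 (23.8%), beside 10.8% of all kept regions. A recurring 30-base word was held by 4 of the 21 (19.0%), beside 4.84% of all kept regions. Of the 33 histone genes 2 had H3K9me2 of depleted cells within 5 kb of a TSS, against 58.9% of all protein-coding genes with a kept region. The histone genes with control regions but none kept (H1-1, H2AC13, H2AC14, H2BC13, H2BC14, H3C1 and H3C10) did not have it either. Its scarcity was therefore not particular to the kept histone genes. None of the 21 cluster regions had such a region within 5 kb, against 37.6% of all kept regions, and the nearest was 6301 bp away. The 21 regions had a median GC content of 49.2%, and of all kept regions under 50% GC 19.3% had H3K9me2 within 5 kb. The part of GC content was not tested.

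The HOX genes, which set position along the body axis, came next with 10 of 16 genes (62.5%, 38.6 to 81.5%) at 8 distinct regions. All 10 had H3K9me2 within 5 kb of a TSS in depleted cells, beside 58.9% of all genes with a kept region, and so did the 6 HOX genes that had control regions but none kept. In control cells 4 of the 10 had it. The HOXB8 region (chr17:46695801-46696300) had rank percentiles of 99.84 and 99.52 and lay 301 bp from H3K9me2 of depleted cells. A region common to HOXA7 and HOXA9 (chr7:27200601-27201000) had 98.99 and 99.30, also at 301 bp, and a region common to HOXD12 and HOXD13 (chr2:176962201-176962700), of 500 bp in both lists, had 98.9 and 98.5 at 601 bp. A region at HOXB3 had 90.2 and 98.6 and one at HOXA3 90.5 and 73.7. The others ranked lower, with 76.6 and 86.5 at HOXC8, 75.1 and 67.9 at HOXD3 and 72.7 and 55.3 at HOXA10.

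For the remaining lists the intervals all include 31.4%, except that of the colon epithelium identity genes (such as CDX2 and KRT20), where 0 of 13 had a kept region (0 to 22.8%). A KDM3B region of depleted cells was still called at 4 of the 23 genes of that list. Translation initiation factors had a kept region at 13 of 31 genes (41.9%), led by EIF3H with rank percentiles of 95.7 and 96.2. Aminoacyl-tRNA synthetases had one at 7 of 18 (38.9%), led by YARS2 with 98.2 and 97.6, and splicing factors at 15 of 39 (38.5%), led by SNRPB2 with 99.5 and 96.0. Proteasome subunits had one at 8 of 22 (36.4%), led by PSMD9 with 99.5 and 96.7. Cytosolic ribosomal proteins had one at 16 of 60 (26.7%), led by RPL7 with 98.7 and 99.2, and mitochondrial ribosomal proteins at 11 of 48 (22.9%), led by MRPS23. Zinc finger genes had one at 37 of 151 (24.5%), led by ZNF335, and cell cycle regulators at 5 of 23 (21.7%), led by CCND3 with 94.3 and 84.1. Of the MLL complex, which methylates lysine 4 of histone H3, 3 of 8 genes had one, namely RBBP5 (96.8 and 96.6), HCFC1 (96.6 and 96.5) and CXXC1 (92.6 and 72.5). Of the enzymes that write or erase H3K9 methylation, 4 of 10 had one, namely KDM4B (77.3 and 96.4), KDM4C (77.3 and 90.7), KDM1A (84.0 and 59.9) and HR (39.4 and 33.2). KDM3A had a control region of 400 bp at its promoter that was not kept, JMJD1C a single window that was not kept, and at KDM3B no control region was called. Of the immediate early genes, 9 of 25 had a kept region (36.0%), among them IER2 with 98.4 and 73.7 and ZFP36, a decay factor for mRNA, with 99.6 and 61.8.

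Of the 31 Wnt target genes that the study had listed 19 had a control region, and 4 of these had a kept one (21.1%), with an interval of 8.51 to 43.3% that includes the 31.4% of all protein-coding genes. Counted whether or not it overlapped a control region, a KDM3B region of depleted cells was called at 12 of the 31, and at 3873 of all 20163 protein-coding genes. At FGF18, a growth factor gene, a region at -651 bp from the TSS (chr5:170845701-170846300) had 600 bp at rank percentile 94.8 in control cells and 300 bp at 94.9 in depleted cells, and H3K9me2 of depleted cells lay 1401 bp away. At MYC, 1 of 5 control regions was kept, at -1230 bp from the nearest TSS, with 300 bp at 98.8 and 200 bp at 86.0, whereas a 1300-bp region at 99.4 was not kept. At CCND1, 1 of 5 was kept, the window whose letters are shown, at -130 bp from a TSS, with 42.0 in control cells and 90.7 in depleted cells, where it was 200 bp wide. That TSS lies downstream of the one nearest the CCND1 regions centred at -2674, -2124 and 17 bp, which were not kept. At FOSL1, an AP-1 subunit gene, 1 of 2 was kept, with 29.8 and 73.7. The 4 control regions of AXIN2 and the 1 of DKK1, both feedback inhibitors of the pathway, were not kept, and at AXIN2 all 4 ranked below 60. In the wider list of pathway components 7 of 18 genes had a kept region (38.9%, 20.3 to 61.4%). BCL9L led it with 99.81 and 99.61 (chr11:118777801-118778300, 500 bp against 700 bp), followed by LRP5, a Wnt co-receptor, with 69.0 and 89.0, GSK3B, a kinase that marks β-catenin for decay, with 66.0 and 74.7, and RNF43, a ubiquitin ligase for Wnt receptors, with 96.99 and 41.8.

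By chromosome, the kept share was highest on chromosome 20 (29.96%, 26.2 to 34.1%), chromosome 10 (29.9%) and chromosome 17 (29.7%). It was lowest on chromosome Y (4 of 44), chromosome X (16.8%, 13.3 to 21.0%) and chromosome 13 (19.4%, 15.5 to 24.1%). Of the kept regions 2.14% had another kept region within 1 kb and 11.9% within 10 kb, so most stood alone.

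The 10 kept regions near an assembly gap, of 23 control regions there, included the top of both lists. On chromosome 6 a region of 2900 bp in control and 2800 bp in depleted cells had rank percentile 100 in both, and 18.3% of its central 30-base words recur. On chromosome 1 one of 800 bp and 1100 bp had 99.99 in both, with 87.3% recurring. On chromosome 21, 3 regions at microRNA genes had 90.5 to 99.99 in control and 99.95 to 99.98 in depleted cells, with 71.8 to 100% recurring, and on chromosome 7, 2 regions had 99.4 and 99.95 in control and 99.91 in depleted cells. The other 3 lay on chromosomes 3 (99.94 and 99.78), 1 (91.1 and 28.3) and 22 (74.3 and 11.7).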

How the data were processed

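HCT116/Scrsh and HCT116/ABsh-1 cells were profiled by ChIP-seq for KDM3B and H3K9me2, with 1 library per antibody and population. The authors aligned reads to hg19 with Bowtie, kept unique positions, and called 100-bp windows by a Poisson test against input. Their methods also ask that neighbouring windows be significant, and how single-window regions met this is not given in the sources used here. The authors deposited a region list for each ChIP library with a score per region, a whole number of at least 2 of unstated meaning, used here for ranks only (ties averaged). The 2 inputs were not analysed here, and depth is unknown. Coordinates count from 1 with both ends included, and distances run from edge to edge, where touching regions are 1 bp apart. A partner is the overlapping region of the depleted-cell list, the best-ranked where there were 2. Assembly gaps are runs of 50 or more N. TSSs and gene features came from GENCODE release 44 for hg19 (64449 genes, 254376 transcripts), in the order promoter, 3 kb downstream, 5′ UTR, 3′ UTR, coding exon, non-coding exon, intron and intergenic. Recurring 30-base words were counted over both strands of hg19 within the central 100 bases, because the genome sequence carried no repeat masking.

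The members, gene lists and motifs were chosen with earlier results of these data known. Regions and genes were named by rules, namely the 10 best mean ranks, the 5 widest, the 5 largest rises and falls in rank, the 5 best beyond 50 kb of a TSS and on H3K9me2, the 5 genes with most kept regions, the Wnt genes, the best members of each list, and regions near gaps. H1-4 and the histone stretches shown were chosen after their values and letters were seen, and 1 region that these rules name is not reported here. Overlap and interval code was tested on simulated data. No test was made. The calculations used Python 3.11.15, numpy 2.4.6, pandas 2.3.3, scipy 1.17.1, pysam 0.24.0 and matplotlib 3.10.9. Alternatives were other overlaps, the upper 50% of ranks, merging, single windows, protein-coding genes, both-sided promoters, other distances to H3K9me2, and, chosen after seeing the data, classes of GC, width, rank, TSS distance and recurring words.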

Additional observations from a re-analysis of the deposited data

How the results depend on the processing

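With 1 library per condition no replicate could be left out, and the unknown depth limits every share. No paired analysis was possible because no result comes from a test. Of 28 alternatives, 10 stayed within the 95% interval of the value as reported. The kept share was 19.5% with an overlap of 50% of both regions, 32.9% with a depleted-cell region within 1 kb, 32.1% in the upper 50% of each list and 26.8% after merging. It was 13.6, 33.2, 44.1, 55.1 and 53.7% by width and 2.19, 3.79, 9.20, 13.6, 18.3, 22.8, 27.3, 36.3, 52.0 and 73.6% by step of rank, classes added after seeing the data.

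The share within 5 kb of a TSS was 42.1% for protein-coding genes, 52.9% at 50% overlap of both and 50.3% for single windows, each below the regions not kept (43.6, 55.5 and 50.9%). In the upper 50% it was 53.9% against 58.0%. The promoter share was 45.4% on both sides of a TSS, 28.1% for protein-coding genes and 29.8% for single windows, and it was below that of the regions not kept in all 5 alternatives. The H3K9me2 share was 0.486% for overlap, 12.7% at 1 kb and 24.9% in the upper 50%. In classes added after seeing the data it was 19.3, 40.4 and 52.9% by GC, and 43.6 and 30.1% within and beyond 5 kb of a TSS. Kept regions were above those not kept in 4 of its 5 alternatives, the exception being overlap. Mean GC was 55.7% in the central 100 bases, 55.6% in single windows and 54.2% in the upper 50%, against 53.8% of those not kept. The median rank percentile was 75.8 at 50% overlap of both and 46.6 for single windows.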
